A study of Mus musculus with 11 samples.

Results

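The miRNAs described here are the mature products of the miR-17/miR-92a cluster and its X-linked paralogue miR-106a/miR-363: mmu-miR-17-5p, mmu-miR-18a-5p, mmu-miR-19a-3p, mmu-miR-19b-3p, mmu-miR-20a-5p, mmu-miR-20b-5p and mmu-miR-92a-3p, written without the species prefix from here on. They were chosen by name and not by a rule on their measured values, though with earlier results of these data known. All 7 had a row among the 1247 miRNAs of the array. miRNAs were profiled in macrophages sorted by their GFP from hearts of Cx3cr1GFP/+ mice aged 2 to 3 months, in which 1 copy of the fractalkine receptor gene is replaced by GFP, in every group and the controls alike. Myocardial infarction was modelled by cryoinjury, in which part of the ventricle is frozen. The groups were Ly6Clow/CX3CR1high macrophages of healthy hearts without surgery (day 0, 2 arrays), Ly6Chigh/CX3CR1low macrophages 3 days after injury (3 arrays), and Ly6Clow/CX3CR1high macrophages 7 days (3 arrays) and 30 days (3 arrays) after injury. The Ly6Chigh population was taken at day 3 only and the Ly6Clow population at every other day, so where day 3 is compared, time after injury and cell population cannot be told apart. Samples of a group are independent biological replicates per the labels.

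The miR-17/miR-92a transcript is a polycistron: a single primary RNA carries several hairpins that are cut out one by one, so that its mature miRNAs share transcription but not maturation or decay. Its promoter is a direct target of Myc and of E2F factors, and its products are abundant in proliferating haematopoietic progenitors. A textbook target is the pro-apoptotic protein Bim, and the miR-17 and miR-20a products are known to restrain monocyte differentiation. A miRNA finds its targets mainly through its seed, bases 2 to 8 from its 5′ end.

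The 7 sequences are shown because they fall into 4 seed families, and members of 1 family can act on the same sites. They come from RefSeq (GRCm38.p6), with the seed in capitals.
miR-17-5p: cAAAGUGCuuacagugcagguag
miR-20a-5p: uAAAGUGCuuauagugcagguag
miR-20b-5p: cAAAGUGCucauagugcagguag
miR-18a-5p: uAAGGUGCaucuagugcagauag
miR-19a-3p: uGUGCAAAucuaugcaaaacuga
miR-19b-3p: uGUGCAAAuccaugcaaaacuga
miR-92a-3p: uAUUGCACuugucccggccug
miR-17-5p, miR-20a-5p and miR-20b-5p shared the seed AAAGUGC, miR-19a-3p and miR-19b-3p shared GUGCAAA, and miR-18a-5p and miR-92a-3p each stood alone among the 7. Counted from the 5′ end, miR-20a-5p differed from miR-17-5p by C1U and C12U, miR-20b-5p differed from miR-17-5p by U10C and C12U, and miR-20b-5p differed from miR-20a-5p by U1C and U10C. miR-19b-3p differed from miR-19a-3p by U11C alone. Whether the array's probes tell such near-identical sequences apart was not tested.

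In the GRCm38.p6 annotation the 6 hairpins of miR-17/miR-92a lay within 836 bases of the plus strand at chr14:115043671-115044506, and the 6 hairpins of miR-106a/miR-363 lay within 875 bases of the minus strand at chrX:52741693-52742567. miR-17-5p, miR-18a-5p, miR-19a-3p and miR-20a-5p come from chromosome 14 only, and miR-20b-5p comes from the X chromosome only. miR-19b-3p and miR-92a-3p have 1 hairpin in each cluster, so that their signals cannot be assigned to either. miR-106a-5p was not analysed here.

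The arrays differed 41.4-fold in brightness, measured as the 75th percentile over 126 miRNAs that every array detected. Day 0 arrays had 55.7 to 163 scanner units, day 3 arrays 805 to 1607, day 7 arrays 114 to 323 and day 30 arrays 1453 to 2304. The number of the 7 cluster miRNAs called detected by the scanner moved with it: 3 to 4 at day 0, all 7 on each day 3 array, 4 to 6 at day 7 and all 7 on each day 30 array. The scanner's own error was 7.32% to 24.2% of the signal, with a median of 8.64%, over the 63 detected values of the 77. Day 30 replicates 2 and 3 differed by no more than their combined error for 82.1% of 290 miRNAs (median absolute log2 difference 0.06). Over all 290 the summed squared difference was 1.18 times the error variance. These 2 replicates were averaged and counted as 1 sample, so that day 30 has n = 2 and the series 10 samples. With 2 or 3 arrays a group, precision is limited throughout. Signals below are log2 of the signal divided by the array's 75th percentile, called log2 scaled signals, so that 0 is a miRNA at that percentile. Levels are compared only within a miRNA, since probes differ in response. On this scale less of a miRNA per cell and fewer cells carrying it cannot be told apart.

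Across the groups 5 of the 7 miRNAs, miR-18a-5p, miR-19a-3p, miR-19b-3p, miR-20a-5p and miR-20b-5p, moved together between a low state in day 0 and day 7 macrophages and a high state in day 3 and day 30 macrophages. At day 3 these 5 were higher than at day 0 (limma, Benjamini-Hochberg adjusted p under 0.05 over all 369 miRNAs tested) and none was lower. Of all miRNAs tested, 16.3% were called higher and 39% lower in that comparison. From day 3 to day 7 the same 5 fell and none rose, where 16% of all miRNAs were called lower and 21.1% higher. From day 7 to day 30 they rose again, with none lower, against a background of 13.6% higher and 34.1% lower. The 5 were also higher at day 30 than at day 0, where 8.94% of all miRNAs were called higher and 47.4% lower. Comparisons that share a group share its samples, so these counts are not independent of each other. miR-17-5p and miR-92a-3p passed the test in none of the 6 comparisons. Groups without overlap were common in the whole table. For day 3 minus day 0 this held for 5 of the 7 and 65.6% of all miRNAs, for day 30 minus day 0 for 6 and 78.3%, for day 7 minus day 3 for 6 and 64.2%, and for day 30 minus day 7 for 5 and 71.3%. It held for none of the 7 and 19.5% of all for day 7 minus day 0, and for 4 and 74.5% for day 30 minus day 3. A lack of overlap is therefore given below only as a description.

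The remaining comparisons gave no call. Between day 7 and day 0, both Ly6Clow, none of the 7 was called higher or lower by limma (1 had an unadjusted p under 0.05), where 3.25% of all miRNAs were called higher and 0.542% lower. Between day 30 and day 3 none was called (1 had an unadjusted p under 0.05), where 9.76% of all miRNAs were called higher and 21.1% lower. Alternative fits gave 0 to 3 calls between day 30 and day 3.

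The median change of the 7 was opposite in sign to that of the whole table in 4 of the 6 comparisons. It was 1.63 for day 3 minus day 0, 2.08 for day 30 minus day 0, -2.02 for day 7 minus day 3 and 1.83 for day 30 minus day 7, where the median of all 369 was -0.79, -1.37, 0.61 and -0.68. For day 7 minus day 0 the medians were -0.54 and -0.51, and for day 30 minus day 3 they were -0.18 and -0.41. The 126 miRNAs detected on every array had medians of -0.77, -1.06, 0.63 and -0.57 in the first 4 of these comparisons. This shift belongs to the scaling: with no scaling the same medians were 2.73, 3.26, -1.71 and 2.61, and the 20 calls kept their sign under every scaling tried.

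**Figure D1:**
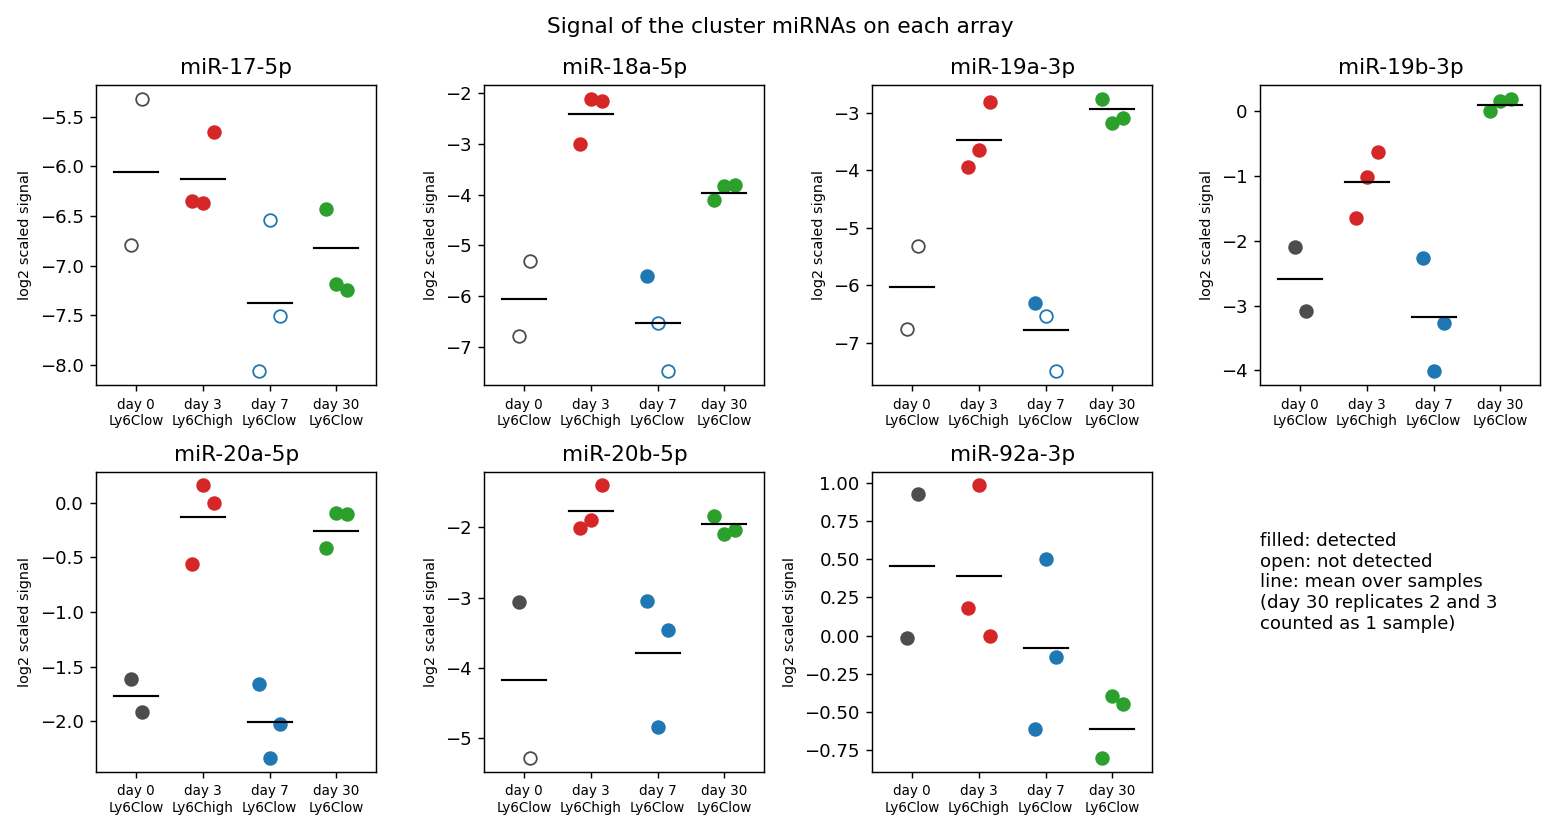
Log2 scaled signal (y axis) of each of the 7 cluster miRNAs in the 4 groups (x axis), 1 point per array, filled where the scanner called it detected and open where not, with a line at the mean over samples. miR-18a-5p, miR-19a-3p, miR-19b-3p, miR-20a-5p and miR-20b-5p sit high at days 3 and 30 and low at days 0 and 7, while miR-92a-3p overlaps between days 0, 3 and 7.

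miR-20a-5p, a miR-17 family product of chromosome 14, was detected on all 11 arrays and was high at days 3 and 30 and low at days 0 and 7. Its log2 scaled signal was -1.61 and -1.92 at day 0, -0.56, 0.16 and 0.00 at day 3, -1.66, -2.34 and -2.02 at day 7, and -0.41, -0.10 and -0.10 on the day 30 arrays. Every day 3 and day 30 array lay above every day 0 and day 7 array. The unscaled signal was 53.5 and 14.8 scanner units at day 0 and 1729, 1357 and 1636 on the day 30 arrays. Means were -1.76 ± 0.22 (SD, n = 2) at day 0, -0.13 ± 0.38 (n = 3) at day 3, -2.005 ± 0.34 (n = 3) at day 7 and -0.26 ± 0.22 (n = 2) at day 30. The log2 change was 1.63 from day 0 to day 3 (SE 0.43, limma adjusted p = 0.00852), a 3.09-fold rise. It fell by 1.87 from day 3 to day 7 (SE 0.38, limma adjusted p = 0.00365). From day 7 to day 30 it rose by 1.75 (SE 0.43, limma adjusted p = 0.00518), and day 30 exceeded day 0 by 1.51 (SE 0.47, limma adjusted p = 0.0164). This last call was lost without day 0 replicate 2 (1.35, adjusted p = 0.0534) and without day 30 replicate 1 (adjusted p = 0.0644). Neither the 2 low groups nor the 2 high groups differed beyond their spread: the difference was -0.24 for day 7 against day 0 (95% interval -1.17 to 0.69) and -0.12 for day 30 against day 3 (-1.05 to 0.81).

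miR-20b-5p, its X-linked relative and the only member specific to miR-106a/miR-363, was likewise higher at days 3 and 30 than at days 0 and 7. Its log2 scaled signal was -3.06 and, undetected, -5.28 at day 0, -2.01, -1.89 and -1.40 at day 3, -3.05, -4.85 and -3.46 at day 7, and -1.84, -2.10 and -2.04 on the day 30 arrays. The high groups did not overlap the low ones, and the 2 lowest values came from the dimmest array of day 0 and of day 7. It was 2.40 higher at day 3 than at day 0 (SE 0.66, limma adjusted p = 0.00976) and fell by 2.02 from day 3 to day 7 (SE 0.59, limma adjusted p = 0.0183). From day 7 to day 30 it rose by 1.83 (SE 0.66, limma adjusted p = 0.0369). Day 30 exceeded day 0 by 2.22 (SE 0.72, limma adjusted p = 0.0196). With array brightness as a covariate all 4 of these changes turned in sign and none was called (-1.58, 0.66, -1.79 and -2.72 in the order given). The calls also rested on few arrays. Without day 0 replicate 2, the array where miR-20b-5p was undetected, the difference between day 3 and day 0 was 1.29 (adjusted p = 0.118) and that between day 30 and day 0 was 1.11 (adjusted p = 0.195). Without day 7 replicate 2 the change to day 7 was -1.49 (adjusted p = 0.0763) and that from day 7 to day 30 was 1.30 (adjusted p = 0.125). The call from day 3 to day 7 was also lost without day 3 replicate 3 (adjusted p = 0.0795), and the call from day 7 to day 30 without that array (0.0505), without day 7 replicate 3 (0.0553) or without day 30 replicate 1 (0.172). The call between day 30 and day 0 was lost without day 30 replicate 1 (0.0875).

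miR-17-5p, the founding member of the family, gave a low signal at days 3 and 30 and was undetected at days 0 and 7. It was detected on all 3 day 3 arrays, at 11.8, 9.72 and 31.9 scanner units, and on all 3 day 30 arrays, at 26.7, 9.97 and 11.6. On the 2 day 0 and 3 day 7 arrays it was undetected, at 1.21 to 1.48 scanner units. Scaled, the detected log2 values were -6.35, -6.37 and -5.65 at day 3 and -6.43, -7.19 and -7.24 on the day 30 arrays, and the background of the dim day 0 arrays lay at -6.79 and -5.32, within or above them. Its day 0 level is therefore only a bound, and no fold is given against it. The bound for day 3 against day 7 was at least 2.08-fold higher, but the test did not pass (limma adjusted p = 0.0719). The measured means were -6.13 ± 0.41 and -7.37 ± 0.77. With 1 array left out the bound ran from 1.63-fold (without day 7 replicate 1) to 2.78-fold (without day 7 replicate 2). Between day 30 and day 7 the test did not pass (limma adjusted p = 0.445). In such a bound the mean of the detected group is set against the lowest detected signal of each array of the other group.

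miR-18a-5p, which has a seed of its own and whose hairpin is known to be processed with the help of the RNA-binding protein hnRNP A1, was detected on every day 3 and day 30 array. At day 3 it gave -3.00, -2.11 and -2.16 (120, 186 and 359 scanner units), and on the day 30 arrays -4.10, -3.84 and -3.82 (134, 102 and 125 scanner units). It was undetected on both day 0 arrays and on 2 of 3 day 7 arrays, and read -5.60 on the array of day 7 that detected it. The groups of high and low values did not overlap. Day 3 was at least 10.9-fold above day 0 (log2 change 3.62, SE 0.60, limma adjusted p = 0.00102), and day 30 was at least 3.75-fold above day 0 (2.08, limma adjusted p = 0.0179). These bounds rest on 2 day 0 arrays: they were 6.46-fold and 2.22-fold without replicate 1 of day 0, the brighter of them, and 18.5-fold and 6.34-fold without replicate 2. From day 3 to day 7 miR-18a-5p fell by 4.11 (SE 0.54, limma adjusted p = 0.000517), and from day 7 to day 30 it rose by 2.57 (limma adjusted p = 0.00398). In both changes 1 of 3 day 7 arrays was measured above background. Day 30 lay below day 3 by a log2 change of -1.54 (95% interval -2.84 to -0.24, limma adjusted p = 0.0681), without overlap between the arrays. With slide as a block this difference was -1.63 and was called (limma adjusted p = 0.0384). The call between day 30 and day 0 was lost without day 0 replicate 1 (1.35, adjusted p = 0.0963) and without day 30 replicate 1 (2.22, adjusted p = 0.0628).

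miR-19a-3p and miR-19b-3p carry the seed known as the main oncogenic element of the cluster in lymphoma. They had their highest group means at day 30, where miR-20a-5p and miR-20b-5p had theirs at day 3, though no difference between days 30 and 3 passed the test. miR-19b-3p was detected on every array and read -2.10 and -3.08 at day 0, -1.65, -1.02 and -0.63 at day 3, -2.26, -4.02 and -3.27 at day 7, and 0.00, 0.16 and 0.19 on the day 30 arrays. All day 30 values lay above all others, and the day 3 values lay between them and the low groups. Its means were -2.59 ± 0.70 (n = 2), -1.10 ± 0.51 (n = 3), -3.18 ± 0.88 (n = 3) and 0.09 ± 0.12 (n = 2) in that order. From day 7 to day 30 miR-19b-3p rose by 3.27 (SE 0.56, limma adjusted p = 0.000856), a 9.63-fold change, and day 30 exceeded day 0 by 2.68 (SE 0.61, limma adjusted p = 0.00532). It fell by 2.08 from day 3 to day 7 (SE 0.50, limma adjusted p = 0.00722). The rise from day 0 to day 3 was smaller, at 1.49 (SE 0.56, limma adjusted p = 0.0377), and was lost on leaving out replicate 2 of day 0 (0.995, adjusted p = 0.233), replicate 2 (0.0886) or 3 (0.127) of day 3, replicate 3 of day 7 (0.0539) or replicate 1 of day 30 (0.0561). Day 30 against day 3 gave 1.19 (95% interval -0.02 to 2.40, limma adjusted p = 0.127), with no overlap between arrays.

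miR-19a-3p, from chromosome 14 only, was undetected at day 0 and detected on 1 of 3 day 7 arrays, at 4.06 scanner units. At day 3 it read -3.95, -3.65 and -2.82 (62.2, 64.1 and 228 scanner units) and on the day 30 arrays -2.75, -3.18 and -3.08 (343, 161 and 207 scanner units). The day 3 and day 30 arrays overlapped each other and lay above all day 0 and day 7 arrays. Day 3 was at least 5.28-fold above day 0 (limma adjusted p = 0.00353) and day 30 at least 7.64-fold above it (limma adjusted p = 0.00255). miR-19a-3p fell by 3.31 from day 3 to day 7 (limma adjusted p = 0.000974) and rose by 3.84 from day 7 to day 30 (SE 0.56, limma adjusted p = 0.00034), with 1 of 3 day 7 arrays measured above background in both changes. These 4 calls held with each array left out in turn. The 2 bounds against day 0 were 3.12-fold and 4.52-fold without replicate 1 of day 0, and 8.93-fold and 12.9-fold without replicate 2.

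miR-92a-3p, encoded in both clusters and known in the heart for its antiangiogenic role in endothelium, did not share this pattern. It was detected on every array, at -0.02 and 0.93 at day 0, 0.18, 0.99 and -0.00 at day 3, -0.61, 0.50 and -0.14 at day 7, and -0.81, -0.40 and -0.45 on the day 30 arrays. The groups of days 0, 3 and 7 overlapped and day 30 lay below days 0 and 3. Its means were 0.46 ± 0.67 (n = 2), 0.39 ± 0.53 (n = 3), -0.08 ± 0.56 (n = 3) and -0.61 ± 0.27 (n = 2). The change from day 0 to day 3 was -0.07 (95% interval -1.16 to 1.02, limma adjusted p = 0.914). Day 30 against day 0 gave -1.07 (95% interval -2.27 to 0.13, limma adjusted p = 0.112), and with slide as a block the same -1.07 was called (limma adjusted p = 0.0337). Against day 3, day 30 gave -1.002 (limma adjusted p = 0.153), and -1.13 with slide as a block (limma adjusted p = 0.0295). The sign of its changes depends on the scaling: with no scaling miR-92a-3p was 3.43 higher at day 3 than at day 0, 3.26 higher at day 30 than at day 0 and 2.65 higher at day 30 than at day 7.

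**Figure D2:**
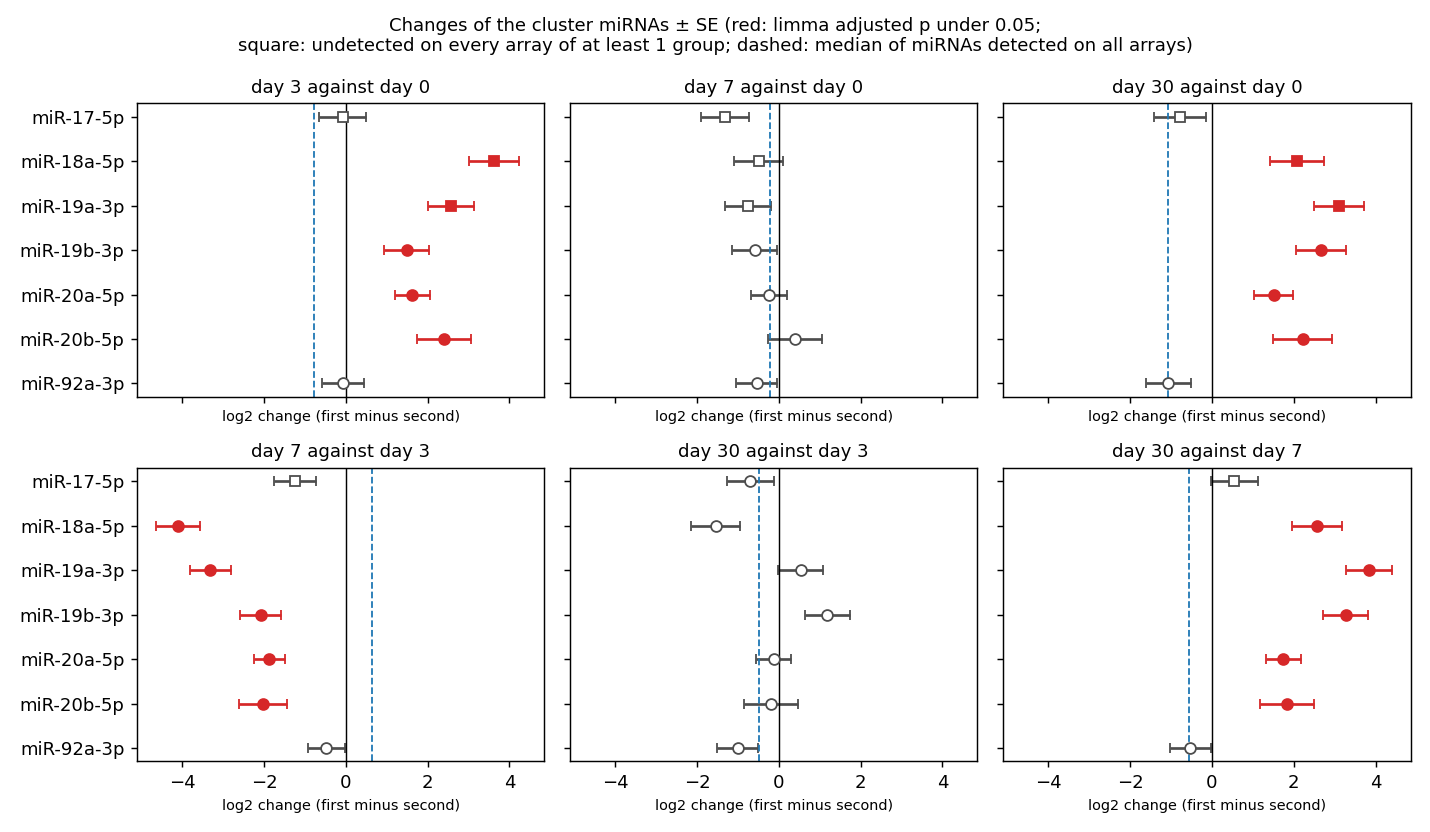
Log2 change of each of the 7 miRNAs (x axis, first group minus second) with its SE in the 6 comparisons, in red where the limma adjusted p was under 0.05 and as a square where the miRNA was undetected on every array of at least 1 group. The dashed line is the median of the miRNAs detected on every array, such as -0.77 for day 3 against day 0. The 5 miRNAs with calls lie on the opposite side of 0 from that line in each of the 4 comparisons where they were called, and miR-92a-3p stays within 1.07 of 0.

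The state of the 5 miRNAs moved with the brightness of the arrays. The groups in which they were high, days 3 and 30, are those with a 75th percentile of 805 or more, and the groups in which they were low have 323 or less. Within the dim groups, the slide 2 array minus the mean of the slide 1 arrays, which were brighter, gave -0.98 at day 0 and -1.25 at day 7 for miR-19b-3p, -0.31 and -0.50 for miR-20a-5p, and -2.22 and -1.59 for miR-20b-5p. For miR-92a-3p the same differences were 0.95 and 0.88. The direction within groups was thus that of the difference between groups for miR-19b-3p, miR-20a-5p and miR-20b-5p, and its size was smallest for miR-20a-5p.

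**Figure D3:**
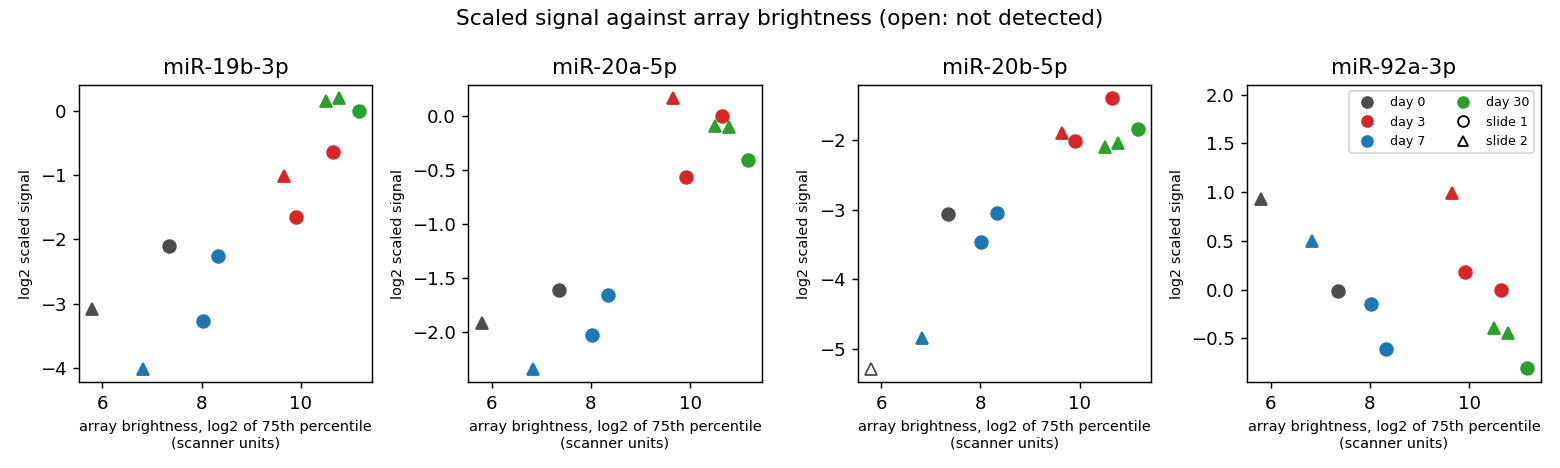
Log2 scaled signal (y axis) of 4 of the cluster miRNAs against the log2 of the array's 75th percentile in scanner units (x axis), 1 point per array, coloured by day, with circles for slide 1 and triangles for slide 2 and an open symbol where undetected. miR-19b-3p, miR-20a-5p and miR-20b-5p are higher on the bright day 3 and day 30 arrays, and miR-92a-3p is highest on 1 bright day 3 array (0.99) and the dimmest day 0 array (0.93).

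With brightness as a covariate in the fit, 3 of the 20 calls were kept, 11 lost their call with the same sign, and 6 turned in sign without passing the test, namely the 4 of miR-20b-5p and those of miR-19b-3p at day 3 (-1.10) and day 30 (-0.53) against day 0. The 3 were miR-18a-5p at day 3 against day 0 (4.52, limma adjusted p = 0.045) and at day 7 against day 3 (-4.71, limma adjusted p = 0.0105), and miR-19a-3p at day 7 against day 3 (-3.79, limma adjusted p = 0.0176). In that fit miR-92a-3p was called at day 3 against day 0 (2.32, limma adjusted p = 0.0397) and at day 7 against day 3 (-2.07, limma adjusted p = 0.0176). Such a fit rests on the brightness differences within groups, which also follow the slide. Between groups, brightness and condition cannot be told apart. With slide no call was lost: the 20 called changes had the same sign within slide 1 and within slide 2, and all 20 passed with slide as a block. For miR-20a-5p the change from day 0 to day 3 was 1.33 on slide 1 and 2.08 on slide 2, and from day 3 to day 7 it was -1.56 and -2.49. For miR-18a-5p the change from day 0 to day 3 was 4.20 and 3.20, both against background, since it was undetected on both day 0 arrays. For miR-19b-3p the change from day 7 to day 30 was 2.76 and 4.19.

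The base composition of the miRNAs moved with the changes as well. G and C made up 34.8% of miR-19a-3p, 39.1% of miR-19b-3p and of miR-20a-5p, 43.5% of miR-18a-5p, 47.8% of miR-17-5p and of miR-20b-5p, and 57.1% of miR-92a-3p. The median over the 101 miRNAs detected on every array that matched a RefSeq sequence was 50%. Across those 101 miRNAs Spearman's rho between this share and the change was -0.36 for day 3 minus day 0, -0.58 for day 30 minus day 0, 0.45 for day 7 minus day 3 and -0.60 for day 30 minus day 7. These points share their arrays and probe chemistry, so the values only describe them, and the part of base composition in the changes of the 7 miRNAs was not tested.

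Ratios between miRNAs of 1 sample do not depend on the scaling of the array. miR-19b-3p, miR-20a-5p and miR-92a-3p, the 3 detected on every array, were used for this. The log2 ratio of miR-20a-5p to miR-92a-3p was -2.22 ± 0.89 (n = 2) at day 0, -0.52 ± 0.46 (n = 3) at day 3, -1.92 ± 0.90 (n = 3) at day 7 and 0.36 ± 0.05 (n = 2) at day 30. The ratio of miR-19b-3p to miR-92a-3p was -3.05 ± 1.36, -1.49 ± 0.75, -3.10 ± 1.44 and 0.70 ± 0.15 in the same order. At day 30 both ratios lay above those of every other sample. Within the dim groups, however, both moved with array brightness. From the brightest to the dimmest array, miR-20a-5p to miR-92a-3p was -1.04, -1.88 and -2.84 at day 7 and -1.59 and -2.85 at day 0. For miR-19b-3p to miR-92a-3p the values were -1.65, -3.12 and -4.52 at day 7 and -2.08 and -4.01 at day 0. The part of brightness in the ratios between groups was not tested. The ratio of miR-19b-3p to miR-20a-5p was -0.83 ± 0.48, -0.97 ± 0.29, -1.18 ± 0.54 and 0.34 ± 0.10, again highest at day 30. Against the mean of the other 2, miR-20a-5p was 0.58 higher in the 3 day 3 samples (0.22 ± 0.08) than in the 7 Ly6Clow samples (-0.36 ± 0.32). The two-sided exact permutation p was 0.0167 (120 splits, smallest possible p 0.00833). Adjusted over the 3 miRNAs this was 0.05, which did not pass. The direction depends on the miRNAs in the mean: with all the other cluster miRNAs in it the difference was -0.20 for miR-20a-5p and -0.58 for miR-19b-3p. Against the mean of the other 2, the difference was 0.09 for miR-19b-3p (exact permutation p = 0.933) and -0.67 for miR-92a-3p (exact permutation p = 0.517). Neither was beyond the spread between samples.

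**Figure D4:**
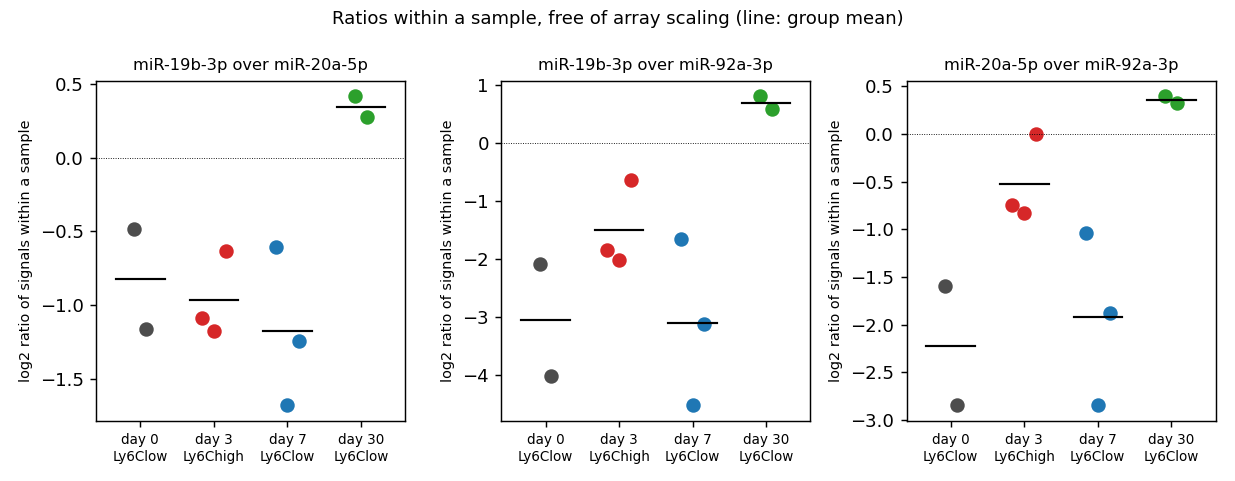
Log2 ratio of the signals of 2 cluster miRNAs within a sample (y axis) in the 4 groups (x axis), 1 point per sample with a line at the group mean. In each of the 3 panels the 2 day 30 samples lie above all others, with means of 0.34, 0.70 and 0.36.

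The other products of the 2 clusters, mostly passenger strands, were barely measured. Of 15 listed, 14 were on the array, 10 were never detected and 2 were detected on enough arrays to be tested, of which none was called higher. miR-17-3p, the opposite arm of the miR-17 hairpin, gave a log2 change of 0.84 from day 0 to day 3 (limma adjusted p = 0.0877), -0.82 from day 3 to day 7 (0.0731) and 0.72 from day 7 to day 30 (0.149). Its signs were those of the 5 called miRNAs and none of these changes passed. miR-18a-3p, the other tested arm, was lower at day 30 than at day 3 by a log2 change of -1.74 (limma adjusted p = 0.0187), with its day 30 values at the floor of the fit. It was undetected at day 0, so its lower call at day 30 against day 0 is not read as a fall.

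The third paralogous cluster, miR-106b/miR-25 in an intron of Mcm7, shares 2 seeds with the clusters above. Its 3 main products are shown because their seeds, in capitals, are those of the miR-17 family and of miR-92a-3p.
miR-106b-5p: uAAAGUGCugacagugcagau
miR-93-5p: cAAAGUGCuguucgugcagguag
miR-25-3p: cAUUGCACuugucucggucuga
All 3 were higher at day 3 than at day 0, by 3.15 for miR-106b-5p (limma adjusted p = 0.00218), 2.48 for miR-93-5p (0.000987) and 2.05 for miR-25-3p (0.00273). Of all miRNAs tested, 16.3% were called higher there. miR-106b-5p was detected on 1 of 2 day 0 arrays, so its day 0 mean includes a background value. All 3 were lower at day 7 than at day 3, by log2 changes of -2.56, -1.75 and -1.56, where 16% of all miRNAs were called lower. They parted at day 30. miR-106b-5p was higher at day 30 than at day 7 by 2.47 (limma adjusted p = 0.00521) and gave -0.10 against day 3 (95% interval -1.41 to 1.21, limma adjusted p = 0.93). miR-93-5p and miR-25-3p were lower at day 30 than at day 3, by -1.86 (limma adjusted p = 0.00566) and -2.14 (limma adjusted p = 0.00247). Thus within the seed AAAGUGC, day 30 values were near those of day 3 for miR-20a-5p, miR-20b-5p and miR-106b-5p and below them for miR-93-5p. For miR-17-5p, with the same seed, day 30 against day 3 gave -0.70 without overlap, which did not pass (limma adjusted p = 0.378). A difference between these miRNAs in their change was not tested.

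Other miRNAs with these seeds gave little signal. miR-18b-5p, which shares the seed of miR-18a-5p and is made from miR-106a/miR-363, was never detected. Of those with the seed of miR-92a-3p, miR-92b-3p was detected on 4 arrays, miR-32-5p on 2 and miR-363-3p on 1. miR-25-3p and miR-92a-3p were the only ones with this seed detected on every array, and of these miR-25-3p was called higher at day 3 than at day 0 and miR-92a-3p was not.

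Myc is known to lower a set of miRNAs while it raises miR-17/miR-92a, and 25 such miRNAs, among them let-7, miR-29 and miR-26 family members, were all tested. At day 3 against day 0, 7 were higher and 4 lower, with a median change of 0.40, where 16.3% of all miRNAs tested were higher and 39% lower. At day 7 against day 3, 3 were higher and 9 lower (median -0.74), beside 21.1% and 16% of all. At day 30 against day 7, 13 were higher and 1 lower (median 1.21), beside 13.6% and 34.1% of all. At day 30 against day 0, 10 were higher and none lower (median 1.03), beside 8.94% and 47.4% of all. Day 30 against day 3 gave 7 higher and 1 lower (median 0.69), beside 9.76% and 21.1% of all. Day 7 against day 0 gave none in either direction (median -0.34), beside 3.25% and 0.542% of all. let-7g-5p rose by 1.36 from day 0 to day 3 (limma adjusted p = 0.0116), fell by 1.63 from day 3 to day 7 (0.00399) and rose by 1.31 from day 7 to day 30 (0.0147). Of the candidates compared below, its profile was nearest to the mean of 3 cluster miRNAs, so it does not stand for the list.

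The miRNAs whose profile over the 10 samples was nearest to the mean profile of miR-19b-3p, miR-20a-5p and miR-92a-3p came from other families. That mean includes miR-92a-3p, which did not share the pattern of the 5 called miRNAs, so it is not their profile. Likeness was the mean absolute difference of profiles centred on their own mean, over 123 candidates detected on every array, with a median of 1.18. It was 0.163 for let-7g-5p, 0.263 for miR-29a-3p, 0.291 for let-7f-5p and 0.333 for miR-27a-3p. Then followed miR-103-3p (0.335), miR-107-3p (0.343), miR-322-5p (0.400) and miR-15a-5p (0.411). Measured the same way against the mean of the other 2, miR-20a-5p stood at 0.319, miR-19b-3p at 0.892 and miR-92a-3p at 1.11.

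Markers of blood and of other heart cells also moved between the groups. Of 3 myeloid and pan-leukocyte miRNAs (miR-223-3p and both miR-142a arms), all 3 were higher at day 3 than at day 0, beside 16.3% of all miRNAs tested. All 3 were lower at day 7 than at day 3 (16% of all) and higher at day 30 than at day 7 (13.6% of all). These are the directions of the 5 cluster miRNAs. At day 30 against day 0, 2 of the 3 were called higher (8.94% of all), where all 5 cluster miRNAs were. miR-142a-5p was undetected at day 0 and detected on 1 of 3 day 7 arrays. The scaled signals of the 3 were summed before the log2 was taken, and the sums below were made the same way. The log2 of the sum was 1.97 to 2.84 on the day 0 arrays and 3.83 to 4.16 on those of day 3. On those of day 7 it was 1.26 to 1.84 and on those of day 30 it was 2.99 to 3.22. Erythroid cells are known to carry miR-451a and miR-144. The only erythroid marker tested, miR-451a, was undetected at day 0 and detected on 1 of 3 day 7 arrays and on every day 3 and day 30 array. It was called lower at day 7 than at day 3 and higher at day 30 than at day 7, and the erythroid sum was highest at day 30 (-3.60 to -3.23, with -6.50 to -4.12 over the other groups). Of 6 cardiomyocyte miRNAs 3 were never detected, and their sum was highest at day 0 (-2.87 to -1.92) and lowest at day 3 (-5.33 to -4.50). The endothelial sum was -3.76 to -1.18 at day 0 and -2.002 to -1.31 over days 3, 7 and 30. The fibroblast and smooth muscle sum reached its highest value at day 7 (-2.51 to -1.21). The lymphocyte sum was low at day 3 (-3.44 to -2.86) and at day 30 (-3.29 to -3.02), with -2.69 to -1.80 over days 0 and 7. Undetected markers entered all these sums at their background, which weighs more on the dim day 0 and day 7 arrays. At day 0, 2 of 6 cardiomyocyte and 0 of 2 erythroid markers were detected on any array. The part of other cells in the changes of the cluster miRNAs was not tested.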

How the data were processed

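Per the labels' protocols, each sample's total RNA (100 ng) carried a Cy3 label. The submitters' processing notes name Agilent Feature Extraction, with no version given in the sources used here. Per the file headers, the deposited files give each miRNA's total gene signal as an intensity in scanner units, with a signal error and a flag for detection. The authors also deposited a table of log2 values for 317 miRNAs, all 7 cluster miRNAs among them. All of its arrays had the same median (4.46), and it was used as an alternative.

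Each signal was divided by its array's 75th percentile, taken over 126 miRNAs that all 11 arrays detected, raised to a floor (log2 of -8.53) and logged. The 369 miRNAs detected on at least 2 arrays were fitted in 1 model of 4 groups with limma 3.58.1 (R 4.3.3), with 6 residual degrees of freedom, and called at a Benjamini-Hochberg adjusted p under 0.05 per comparison. The fit was tested on simulated data. Single ratios used a two-sided exact permutation test over samples. Day 30 replicates 2 and 3 were counted as 1 sample: their summed squared difference was 1.18 times the scanner's error variance, against 2.19 to 25.0 for the other pairs. The slide was read from the array layout of the files.

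The cluster miRNAs, the lists of other miRNAs and the tests were chosen with earlier results of these data known. The lists were written from general knowledge, and the nearest profiles were named by a fixed rule, the 8 smallest mean absolute differences. Other settings for scaling, floor, filter, blocks and arrays left out are given in the closing section. Sequences and coordinates are RefSeq's for GRCm38.p6, matched by name, and the deposited files name no build.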

Additional observations from a re-analysis of the deposited data

How the results depend on the processing

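The 20 calls kept their sign under every alternative except brightness as a covariate. All 20 were kept with 11 separate arrays, total-signal scaling, no scaling, no filter, the filter on detection on all arrays of 1 group, the authors' table, slide as a block and the replicate block. Of the 20, 18 were kept with the 75th percentile over all miRNAs and with only the 2 groups compared, 17 with quantile normalization and 15 with the highest floor. Leaving out 1 array gave 3 to 5 calls for day 3 minus day 0, 0 to 1 for day 7 minus day 0, 2 to 5 for day 30 minus day 0, 4 to 6 for day 7 minus day 3, 0 to 1 for day 30 minus day 3 and 4 to 5 for day 30 minus day 7. On leaving out replicate 2 of day 0 the counts for day 3 minus day 0 and for day 30 minus day 0 were each 3, and the latter was 2 on leaving out replicate 1 of day 30. The call at day 7 minus day 0 was a lower one of miR-17-5p, undetected in both groups, on leaving out replicate 1 of day 0 (-2.05, limma adjusted p = 0.0195) or replicate 2 of day 7 (-1.73, limma adjusted p = 0.039). That at day 30 minus day 3 appeared on leaving out either day 0 array or replicate 1 of day 7.

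Counts moved as follows, and the cause was not tested. With brightness as a covariate they were 2 for day 3 minus day 0, 1 for day 7 minus day 0, 0 for day 30 minus day 0, 3 for day 7 minus day 3, 1 for day 30 minus day 3 and 0 for day 30 minus day 7, where 18.4%, 18.7%, 0%, 15.7%, 35.5% and 3.52% of all miRNAs were called. The highest floor gave 3 for day 3 minus day 0, and no filter gave 1 for day 7 minus day 0. For day 30 minus day 3 there was 1 call with total-signal scaling, with the authors' table, with the highest floor and with 11 separate arrays, 2 with only the 2 groups compared and with slide as a block, and 3 with the replicate block.

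Some changes turned in sign. Under the 75th percentile over all miRNAs, quantile normalization, no scaling and the authors' table, miR-17-5p gave 2.28, 1.64, 2.89 and 1.55 for day 3 minus day 0 and 1.99, 1.71, 3.03 and 1.68 for day 30 minus day 0. miR-92a-3p gave 2.47 with the 75th percentile over all miRNAs, 3.43 with no scaling and 2.32 with brightness for day 3 minus day 0, 1.87 and 3.26 with the first 2 of these for day 30 minus day 0, and 2.65 with no scaling for day 30 minus day 7. With brightness as a covariate miR-19b-3p gave -1.10 for day 3 minus day 0 and -0.53 for day 30 minus day 0, and miR-20b-5p gave -1.58, -2.72, 0.66 and -1.79 for day 3 minus day 0, day 30 minus day 0, day 7 minus day 3 and day 30 minus day 7. With all the other cluster miRNAs in the within-sample mean, the difference of miR-20a-5p was -0.20 and that of miR-19b-3p -0.58.

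Samples of different groups with the same replicate number did not deviate together throughout: the 15 pairs had correlations of -0.26 to 0.59 (median 0.40), against -0.69 to 0.63 (median -0.26) for 30 pairs of different number, and 5 of 11 arrays correlated best with their own number. Most pairs of the same number also lay on 1 slide. The 22 pairs on the same slide had correlations of -0.11 to 0.63 (median 0.40), and the 23 on different slides -0.69 to 0.16 (median -0.36). Beyond the slide, the samples share only a number. The replicate block gave 6 calls for day 30 minus day 0 and kept all 20 calls. Dim arrays limit miR-17-5p, miR-18a-5p and miR-19a-3p to bounds at day 0.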
